A study of Sus scrofa with 599 samples.

Results

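The lipolysis genes described here are 7 genes of triglyceride breakdown in adipocytes, PNPLA2, LIPE, MGLL, ABHD5, G0S2, PLIN1 and AQP7, chosen by name. A row of the deposited expression table was found for 6 of the 7 among 21280 protein-coding genes (PCGs). No row could be matched to AQP7, so its expression was not analysed here and it was followed only through its chromatin. Each gene was also placed in 1 of 113298 bins of 20 kb of the deposited A-B index, and next to the deposited H3K27ac regions.

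The study profiled 4 adipose tissues (ATs) of adult female Bama pigs, a miniature breed, all 2 years old at the start and all killed after a night without feed. Visceral tissue came from the greater omentum (GOM), the mesenteric adipose (MAD) and the retroperitoneal adipose (RAD), and subcutaneous tissue from the upper layer of backfat (ULB). A normal diet was fed to the NC pigs. WG pigs were fattened on a high-fat diet that lasted 22 weeks, and WL pigs were weight-gained animals then held at 10% of the normal caloric intake for 12 weeks. The paper names a difference in age of 12 weeks between WG and WL pigs and holds that it has no significant effect. In these data, age and time cannot be told apart from weight loss. No group carried a transgene or received a drug. RNA-seq libraries of NC, WG and WL numbered 9, 45 and 10 for GOM, 12, 36 and 10 for MAD, 12, 39 and 10 for RAD, and 5, 38 and 10 for ULB, which are the n of every expression value here. The 3 groups answer which of these genes change as weight is gained, which change again as it is lost, and whether the weight-reduced animals return to the never-obese state. Because WG and WL are both compared with NC, and NC and WL both with WG, the 3 steps share libraries and their values stand side by side without a test of their likeness.

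In an adipocyte, stored triglyceride is cut in steps at the surface of the lipid droplet. PNPLA2 (adipose triglyceride lipase) removes the first fatty acid, LIPE (hormone-sensitive lipase) acts mainly on the resulting diacylglycerol, and MGLL (monoacylglycerol lipase) frees the last fatty acid from glycerol, which leaves through the channel AQP7. ABHD5 is the co-activator of PNPLA2 and G0S2 is its inhibitor, while PLIN1 coats the droplet, holds ABHD5 at rest and releases it after phosphorylation by protein kinase A.

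On the Sscrofa11.1 assembly the members lie on 6 chromosomes. PNPLA2 (ENSSSCG00000012841) occupies chr2:513065-517962 on the plus strand, LIPE (ENSSSCG00000003018) chr6:49543671-49560126 on the plus strand, and MGLL (ENSSSCG00000024134) chr13:72480395-72568964 on the plus strand. ABHD5 (ENSSSCG00000011297) occupies chr13:27006331-27053760 on the plus strand, G0S2 (ENSSSCG00000015617) chr9:133287065-133288066 on the minus strand, PLIN1 (ENSSSCG00000001844) chr7:55237517-55250797 on the minus strand, and AQP7 chr10:33098746-33130245 on the plus strand. The promoters of the enzyme PNPLA2, its inhibitor G0S2 and the next enzyme LIPE are shown because the results turn on the opposite course of the first pair and because deposited H3K27ac regions covered these windows in most tables. Each run holds 270 bases of the Sscrofa11.1 genome with RefSeq gene starts, from 250 bases before the start to 20 after it, 5′ to 3′ on the strand of the gene. Capitals mark the motifs found. These are the GC box, read as GGGCGG or, where it lies on the opposite strand, as CCGCCC. They also include the CCAAT box, read as CCAAT or on the opposite strand as ATTGG, and the TATA box TATAAA.
PNPLA2 promoter, chr2:512815-513084, plus strand: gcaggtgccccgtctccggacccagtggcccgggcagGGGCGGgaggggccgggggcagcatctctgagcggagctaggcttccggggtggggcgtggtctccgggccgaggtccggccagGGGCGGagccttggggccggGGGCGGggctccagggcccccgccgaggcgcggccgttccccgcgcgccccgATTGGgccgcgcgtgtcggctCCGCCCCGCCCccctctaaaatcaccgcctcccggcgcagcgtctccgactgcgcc
G0S2 promoter, chr9:133288047-133288316, minus strand: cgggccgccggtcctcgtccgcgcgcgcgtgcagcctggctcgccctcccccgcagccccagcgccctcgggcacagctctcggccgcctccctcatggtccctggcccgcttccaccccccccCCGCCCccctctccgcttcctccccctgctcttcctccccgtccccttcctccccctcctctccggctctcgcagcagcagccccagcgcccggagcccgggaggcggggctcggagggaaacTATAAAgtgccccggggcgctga
LIPE promoter, chr6:49543421-49543690, plus strand: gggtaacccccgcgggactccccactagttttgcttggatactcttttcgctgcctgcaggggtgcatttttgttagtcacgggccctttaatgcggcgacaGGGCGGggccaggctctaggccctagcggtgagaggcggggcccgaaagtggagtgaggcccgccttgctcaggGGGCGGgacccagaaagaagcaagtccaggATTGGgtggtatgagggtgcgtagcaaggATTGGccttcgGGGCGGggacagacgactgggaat

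The PNPLA2 window held 5 GC boxes and 1 CCAAT box on the opposite strand. The G0S2 window held 1 GC box on the opposite strand and a TATAAA that began 3 bases before the annotated start and ran across it. The LIPE window held 3 GC boxes and 2 CCAAT boxes on the opposite strand. Over 18724 promoters of the same length, searched on both strands, GGGCGG was present in 48.6%, CCAAT in 33.4% and TATAAA in 10.2%. The nuclear receptor motif TGACCT (13.1% of promoters), the C/EBP-type motif TTGCNNAA (8.74%), the forkhead motif TGTTTAC (2.44%) and the cAMP response element TGACGTCA (2.09%) were searched as well and had no match in these 3 windows. The GC content was 79.6% for PNPLA2, 76.7% for G0S2 and 62.2% for LIPE, against a median of 58.1% over all promoters. A match is a description of the letters and was not tested as a binding site.

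The libraries held 3337098 to 22939420 estimated counts on PCGs (median 16791659). TPM, the length-scaled abundance of a transcript as a share of the library, is the level used below. In 40 of the 236 libraries less than 88% of all TPM fell on PCGs, and these libraries were unevenly spread: 17 of 38 in NC, 6 of 158 in WG and 17 of 40 in WL, with 7 of 9 in NC GOM. The adipocyte identity of the tissue was checked with 10 markers (ADIPOQ, LEP, CIDEC, GPD1, FABP4, CEBPA, PPARG, ACVR1C, TRARG1 and PCK1), none of which had a median of 0 in any group. Their summed level in NC had medians of 7019 TPM for GOM, 14117 for MAD, 16963 for RAD and 13172 for ULB, so NC GOM stood low. Among MAD libraries, 13 exceeded every library of the other ATs in the sum of 5 T cell markers (88.1 TPM) or of 4 smooth muscle markers (1618 TPM), 3 of them in NC, 4 in WG and 6 in WL. In bulk tissue, fewer cells of a type and less RNA per cell cannot be told apart.

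All 6 measured members were abundant adipose transcripts. Ranked by mean TPM over all PCGs in each of the 12 groups, PLIN1 lay between places 80 and 181, LIPE between 150 and 302, PNPLA2 between 303 and 1011, MGLL between 457 and 1150, and ABHD5 between 835 and 2328. G0S2 moved most, between places 385 and 4410. When the 12 group means of each gene were placed in order, neighbours in the order lay within the larger of their SDs for 5 of the 6 members. The exception was 1 pair of ABHD5, NC GOM with 51.1 TPM ± 19.7 (SD, n = 9) below WL GOM with 90.5 ± 36.8 (SD, n = 10).

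**Figure D1:**
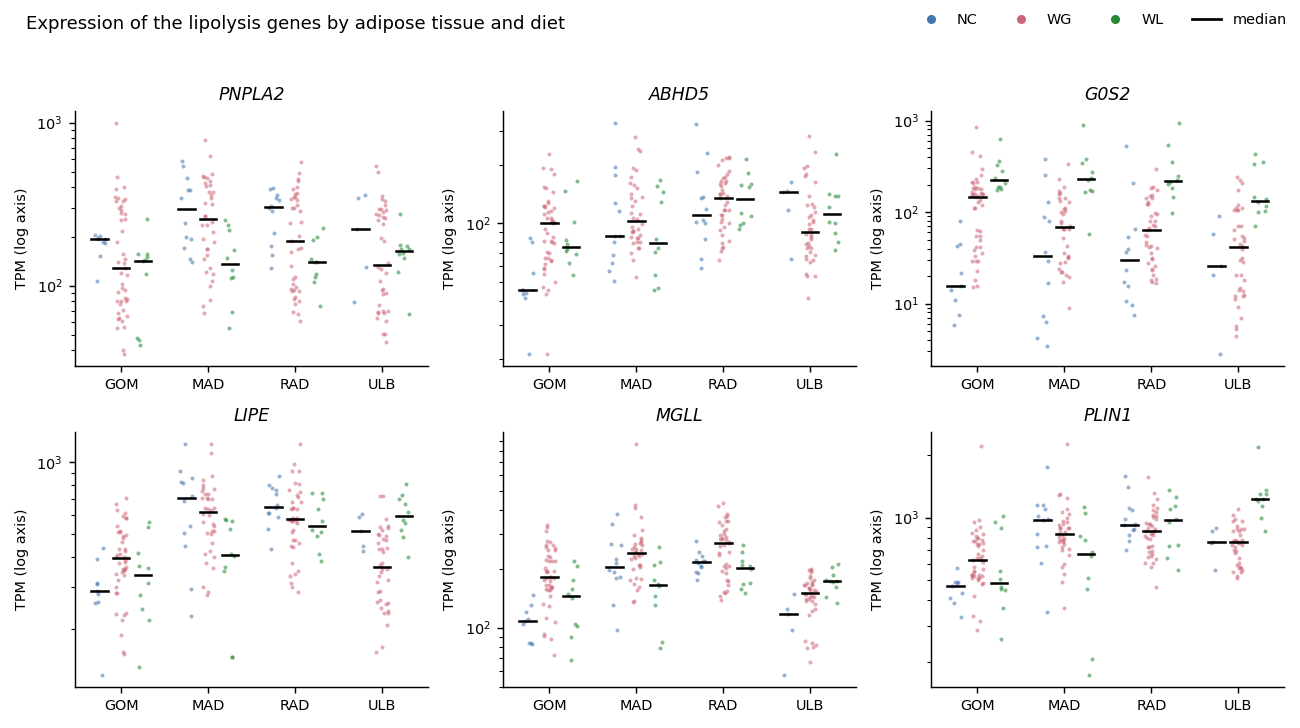
Expression of the 6 measured lipolysis genes in every RNA-seq library (y axis, TPM on a log axis) by AT and nutritional group (x axis), with 1 point per library and a bar at each group's median. G0S2 is the gene whose WL points sit highest in each AT, with medians of 133 to 231 TPM against 15.6 to 33 in NC.

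PNPLA2, the enzyme of the first cut, was lower in weight-reduced than in never-obese visceral fat. In GOM its level ran from 107 to 204 TPM in NC (median 193), from 38 to 1000 in WG (median 129) and from 43.1 to 256 in WL (median 142). In MAD it ran from 139 to 580 in NC (median 294), from 67.8 to 779 in WG (median 256) and from 55.1 to 252 in WL (median 136). These ranges overlap in both tissues, yet 9 of 10 WL libraries of GOM and 10 of 10 of MAD were below the NC median. In RAD the level ran from 128 to 398 TPM in NC (median 305), from 60.5 to 576 in WG (median 186) and from 75.2 to 224 in WL (median 139), with all 10 WL libraries below the NC median. In ULB the 5 NC libraries had 357, 79.2, 343, 131 and 221 TPM, while WG ran from 45.3 to 541 (median 134) and WL from 66.6 to 274 (median 163). The 5 NC ULB libraries were spread more widely (SD 124 TPM) than the 10 WL libraries of ULB (SD 51.7 TPM).

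LIPE, the enzyme of the second cut, was lowest in NC GOM and fell in WL MAD. In NC it ran from 129 to 437 TPM in GOM (median 289), from 227 to 1191 in MAD (median 707) and from 435 to 877 in RAD (median 652), and the 5 ULB libraries had 591, 424, 606, 514 and 447. In WG the medians for GOM, MAD, RAD and ULB were 399, 620, 577 and 364, over ranges of 158 to 707, 280 to 1197, 287 to 1188 and 161 to 725. In WL they were 337, 408, 543 and 597, over ranges of 139 to 561, 153 to 577, 386 to 742 and 401 to 809. The order of the ATs therefore changed with nutrition, ULB having the lowest median in WG and the highest in WL.

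MGLL, the last enzyme, separated RAD from both GOM and ULB in never-obese pigs. In NC it ran from 82.6 to 147 TPM in GOM (median 109), from 97.3 to 381 in MAD (median 205) and from 176 to 277 in RAD (median 216), and the 5 ULB libraries had 149, 57.2, 118, 125 and 97.7. All 12 RAD libraries were above every GOM and every ULB library of the NC group. The share of all PCGs that separate so completely between these groups was not counted. In WG the medians for GOM, MAD, RAD and ULB were 182, 241, 270 and 150, over ranges of 72.8 to 333, 136 to 872, 139 to 431 and 66.7 to 198. In WL the medians were 145, 165, 202 and 173 in the same order of ATs, over ranges of 68.3 to 219, 78.4 to 259, 150 to 265 and 134 to 211. The gap between RAD and ULB was thus narrower in WL, where the ranges overlapped.

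ABHD5, the co-activator of PNPLA2, was low in NC GOM. In NC it ran from 21.3 to 84.3 TPM in GOM (median 45.3), from 50.7 to 330 in MAD (median 86.4) and from 59.3 to 325 in RAD (median 111), and the 5 ULB libraries had 144, 163, 117, 146 and 65.7. In WG the medians of GOM, MAD, RAD and ULB were 101, 102.3, 135 and 90.8, over ranges of 21.3 to 226, 52.9 to 278, 64.8 to 220 and 41.4 to 282. In WL they were 75.9, 79.0, 133 and 111, over ranges of 54.0 to 165, 45.3 to 168, 93.1 to 214 and 73.1 to 227. Outside NC GOM, the group medians of ABHD5 all lay between 75.9 and 144 TPM.

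G0S2, the inhibitor of PNPLA2, was the most variable member and the one with the largest rise in WL. In GOM it ran from 5.81 to 79.6 TPM in NC (median 15.6), from 15 to 851 in WG (median 147) and from 175 to 624.6 in WL (median 223). Every WL library of GOM was therefore above every NC library of GOM, and the share of all PCGs for which this holds was not counted. In MAD it ran from 3.44 to 385 in NC (median 33), from 8.91 to 333 in WG (median 68.4) and from 57.2 to 893 in WL (median 231). In RAD it ran from 7.48 to 533 in NC (median 30.0), from 16.9 to 299 in WG (median 63.3) and from 96.7 to 952 in WL (median 220). In ULB the 5 NC libraries had 2.81, 57.3, 25.5, 89.7 and 20.5 TPM, while WG ran from 4.43 to 239 (median 41.4) and WL from 71.3 to 433 (median 133). The NC and WL ranges overlapped in these 3 ATs, with all 10 WL libraries of each AT above the NC median.

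PLIN1, the droplet coat protein, was highest in WL ULB. In NC it ran from 331 to 573 TPM in GOM (median 469), from 351 to 1767 in MAD (median 977) and from 699 to 1590 in RAD (median 926), and the 5 ULB libraries had 889, 560, 863, 765 and 757. All 12 RAD libraries were above every GOM library in NC, with no count of how many PCGs do the same. In WG the medians for GOM, MAD, RAD and ULB were 626, 838, 859 and 762, over ranges of 287 to 2225, 367 to 2280, 465 to 1566 and 510 to 1105. In WL they were 485, 667, 973 and 1228, over ranges of 259 to 1022, 173 to 1132, 559 to 1358 and 858 to 2198. All 10 WL ULB libraries were above the WG ULB median.

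With weight gain, 2 of the 6 measured members rose, both in GOM, and none was called in MAD, RAD or ULB. A gene was called at a Benjamini-Hochberg adjusted p below 0.05 over all PCGs tested, by edgeR's quasi-likelihood test, and a fold change above 1.5. Among all tested PCGs, 26.7% were called for GOM (12.2% higher), 10.7% for MAD, 16.7% for RAD and 2.38% for ULB, so the 2 of 6 in GOM are near the background. At an unadjusted p below 0.05, edgeR gave 0 members for MAD, 3 for RAD (PLIN1, LIPE and PNPLA2) and 1 for ULB (LIPE), and neither DESeq2 nor limma on log2(TPM + 1) called a member there. G0S2 rose in GOM by a log2 fold change of 2.29 (SE 0.59, edgeR adjusted p = 0.00205), and ABHD5 rose there by 0.71 (SE 0.26, edgeR adjusted p = 0.0254). MGLL in GOM had a log2 fold change of 0.55 (SE 0.17, edgeR adjusted p = 0.00891), just under the fold limit. In RAD, PLIN1 with −0.46 (SE 0.12, edgeR adjusted p = 0.00181) and LIPE with −0.42 (SE 0.13, edgeR adjusted p = 0.0122) passed the p limit below the fold limit. The median log2 fold change of the 6 members for GOM, MAD, RAD and ULB was 0.43, −0.21, −0.37 and −0.25, against medians within 0.01 of 0 over all PCGs.

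The rise of the adipocyte markers accompanied the calls in GOM. Of the 10 adipocyte markers, CEBPA, CIDEC, FABP4, GPD1 and LEP were called higher and ACVR1C lower in WG GOM, and the median of their sum was 7019 TPM in NC (4626 to 8106) and 13157 in WG (4142 to 24084). The part of the adipocyte share in the calls was not tested. With the PCG share set (below 88% or not) as a term, ABHD5 had a log2 fold change of 0.51 in GOM (edgeR adjusted p = 0.226). With the libraries at or above 88% alone, of which NC GOM has 2, G0S2 had 3.52 (edgeR adjusted p = 0.0796).

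The change of G0S2 with weight gain differed between ATs. In the joint test over the 4 ATs, which called 8.8% of 15068 PCGs, G0S2 was the only one of the 6 members with an adjusted p below 0.05 (edgeR adjusted p = 0.0378). Here and below, the joint fit and its differences between ATs had no block for the pig or replicate number. Its log2 fold change was lower than that of GOM by 2.43 in MAD (log2 difference −2.43, SE 0.72, edgeR adjusted p = 0.0196) and by 2.64 in RAD (log2 difference −2.64, SE 0.73, edgeR adjusted p = 0.0256). Restricted to libraries at or above 88%, none of the 6 members passed the joint test in any of the 3 steps.

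**Figure D2:**
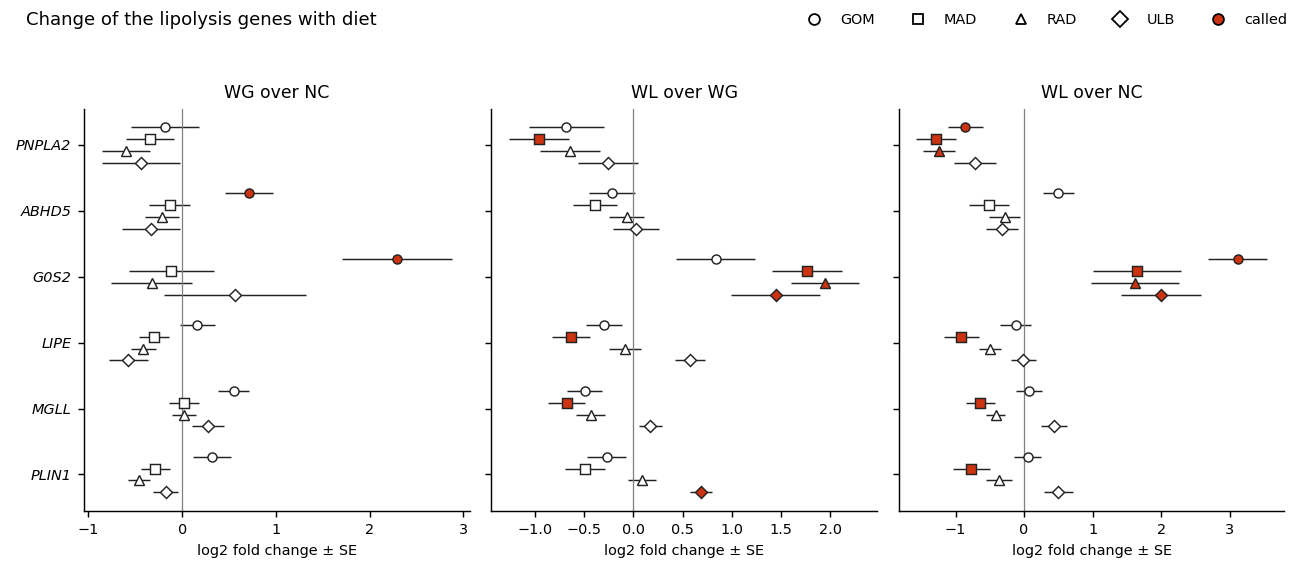
Log2 fold changes of the 6 measured lipolysis genes (x axis) for weight gain, weight loss and WL against NC in each AT, with bars of 1 SE, filled where the gene was called by edgeR. G0S2 lies to the right in every AT for WL against NC, from 1.62 to 3.11, and PNPLA2 lies to the left, from −1.28 to −0.71.

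With weight loss, G0S2 rose in MAD, RAD and ULB, PLIN1 rose in ULB, and all 3 enzymes fell in MAD. Among all tested PCGs, 5.26% were called for GOM, 17.4% for MAD (9.17% lower), 6.37% for RAD and 8.12% for ULB (3.22% higher), and the members called numbered 0, 4, 1 and 2 of 6. For GOM, 2 members (G0S2 and MGLL) had an unadjusted p below 0.05 by edgeR, DESeq2 called 0, and limma on log2(TPM + 1) called 1 (G0S2). G0S2 had log2 fold changes of 1.77 in MAD (SE 0.36, edgeR adjusted p = 0.000260), 1.95 in RAD (SE 0.35, edgeR adjusted p = 0.000133) and 1.45 in ULB (SE 0.46, edgeR adjusted p = 0.0211). In GOM, where WG was already high, its value was 0.84 (SE 0.40, edgeR adjusted p = 0.195). The WL libraries above the WG median numbered 10 of 10 in GOM, RAD and ULB and 9 of 10 in MAD. PLIN1 rose in ULB by 0.69 (SE 0.11, edgeR adjusted p = 7.05e-06), and LIPE in ULB had 0.58 (SE 0.15, edgeR adjusted p = 0.00677), just under the fold limit.

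In MAD the 3 enzymes were lower in WL than in WG. PNPLA2 fell by 0.96 on the log2 scale (SE 0.30, edgeR adjusted p = 0.0142), with all 10 WL libraries below the WG median. MGLL fell by 0.68 (SE 0.19, edgeR adjusted p = 0.00549) and LIPE fell by 0.63 (SE 0.19, edgeR adjusted p = 0.0115). Lymphoid and smooth muscle markers moved with these values. All 5 T cell markers and all 6 B cell and plasma cell markers were called higher in WL MAD, and WL MAD replicates 6 and 7 had T cell sums of 613 and 561 TPM, adipocyte sums of 3621 and 4642, and PNPLA2 levels of 68.4 and 55.1. Without the 13 MAD libraries described above, the log2 fold change of PNPLA2 was −0.62 (edgeR adjusted p = 0.391), that of MGLL −0.38 (edgeR adjusted p = 0.397) and that of LIPE −0.23 (edgeR adjusted p = 0.591), while G0S2 was still called. That fit holds 4 of the 10 WL libraries, and the part of cell content and that of fewer libraries were not tested apart.

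The G0S2 values of the weight loss step also moved with the PCG share of the libraries. With that share as a continuous term, its log2 fold change was 1.13 in MAD (edgeR adjusted p = 0.0987), 0.98 in RAD (edgeR adjusted p = 0.0595) and 0.96 in ULB (edgeR adjusted p = 0.229). With the same term PLIN1 in ULB stayed past the p limit and came under the fold limit. The part of the share in these results was not tested further.

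The change with weight loss differed between ATs for PLIN1 (edgeR adjusted p = 0.000276), LIPE (edgeR adjusted p = 0.000732) and MGLL (edgeR adjusted p = 0.0171) in the joint test, which called 6.41% of PCGs. For G0S2, PNPLA2 and ABHD5 the joint adjusted p by edgeR was 0.910, 0.969 and 1. ULB stood apart from MAD, with a change higher by 1.15 on the log2 scale for PLIN1 (SE 0.23, edgeR adjusted p = 0.000131), by 1.18 for LIPE (SE 0.24, edgeR adjusted p = 0.000178) and by 0.82 for MGLL (SE 0.21, edgeR adjusted p = 0.00509). It also stood apart from GOM, by 0.92 for PLIN1 (SE 0.23, edgeR adjusted p = 0.0156) and by 0.84 for LIPE (SE 0.24, edgeR adjusted p = 0.0498). In WL ULB, 3 of the 10 adipocyte markers were called higher (ADIPOQ, GPD1 and PCK1) and none lower, and their summed median was 21054 TPM against 14146 in WG ULB. The part of the adipocyte share in these values was not tested.

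Weight-reduced tissue was called higher in G0S2 and, in visceral fat, lower in PNPLA2 than never-obese tissue. For G0S2 the call held in every alternative in GOM alone. Among all tested PCGs, 36.1% were called in WL against NC for GOM, 33.1% for MAD (17.8% lower), 26.7% for RAD and 14.8% for ULB, and the members called numbered 2, 5, 2 and 1 of 6. In GOM, RAD and ULB that count is near the background. G0S2 was higher by a log2 fold change of 3.11 in GOM (SE 0.43, edgeR adjusted p = 3.87e-06), 1.65 in MAD (SE 0.65, edgeR adjusted p = 0.0409), 1.62 in RAD (SE 0.64, edgeR adjusted p = 0.0454) and 2.0 in ULB (SE 0.58, edgeR adjusted p = 0.0237). PNPLA2 was lower, at −0.86 in GOM (SE 0.26, edgeR adjusted p = 0.00734), −1.28 in MAD (SE 0.29, edgeR adjusted p = 0.00118) and −1.24 in RAD (SE 0.23, edgeR adjusted p = 0.000248). Its value in ULB was −0.71 (SE 0.31, edgeR adjusted p = 0.111). Cell type markers moved in the same comparison. Of the 10 adipocyte markers, 5 were called higher and 2 lower in GOM, 1 and 4 in MAD, 1 and 3 in RAD, and 3 and 1 in ULB, with PPARG, the adipocyte nuclear receptor, lower in every AT. All 5 T cell markers were higher in MAD, with 2, 1 and 2 higher in GOM, RAD and ULB. The macrophage markers had 6 of 9 higher in MAD and 3 higher in RAD, 4 lower in GOM, and none called by edgeR in ULB. Of 24 tests of fibroblast and progenitor markers over the 4 ATs, 2 were called higher and 8 lower. COL1A1, a collagen gene of fibroblasts, was lower in every AT, whereas the mean of PDGFRA, another of these markers, was higher in WL than in NC in GOM, MAD and RAD. The part of these cells in the values of G0S2 and PNPLA2 was not tested. In the joint test, which called 8.32% of PCGs, neither gene had a difference between ATs below 0.05 (edgeR adjusted p = 0.543 for G0S2 and 0.846 for PNPLA2).

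The calls of these genes held to different degrees. G0S2 in GOM and PNPLA2 in MAD and RAD were called in every alternative tried, over ranges of 3.1 to 4.31, −1.66 to −1.06 and −1.29 to −0.94. PNPLA2 in GOM was called in all alternatives but 1, the libraries with a PCG share of 88% or more, where it had −1.16 (edgeR adjusted p = 0.0979) with 2 libraries left in NC. G0S2 in ULB was not called without NC ULB replicate 5 (1.89, edgeR adjusted p = 0.0578) or replicate 9 (1.86, edgeR adjusted p = 0.0657), and PNPLA2 in ULB was called without replicate 2 (−0.92, edgeR adjusted p = 0.0288). G0S2 in RAD had 0.38 (edgeR adjusted p = 0.749) among libraries with a PCG share of 88% or more. It was called there in 4 of 7 alternatives, and was also lost with no filter and with the continuous share. In MAD, G0S2 was called in 4 of 8 alternatives, over a range of 1.21 to 2.78. It was lost there with every setting for the PCG share and without the MAD libraries of high T cell or smooth muscle markers. The G0S2 call in ULB was also lost among libraries of 88% or more.

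Among the other members, the fall from NC to WL was in MAD. LIPE fell there by 0.92 on the log2 scale (SE 0.25, edgeR adjusted p = 0.00560), PLIN1 fell by 0.77 (SE 0.27, edgeR adjusted p = 0.0251) and MGLL fell by 0.64 (SE 0.21, edgeR adjusted p = 0.0162). LIPE in MAD was called in all 8 alternatives, whereas without the MAD libraries of high T cell or smooth muscle markers PLIN1 had −0.49 and MGLL −0.41, both no longer called, as was G0S2 with 2.35. In RAD, LIPE with −0.50 (SE 0.16, edgeR adjusted p = 0.0131) and MGLL with −0.42 (SE 0.14, edgeR adjusted p = 0.0169) passed the p limit below the fold limit. ABHD5 had values of 0.50, −0.52, −0.29 and −0.32 in GOM, MAD, RAD and ULB and was called in none. The change from NC to WL differed between ATs for PLIN1 (edgeR adjusted p = 0.0116) and MGLL (edgeR adjusted p = 0.0175), with ULB above MAD by 1.26 for PLIN1 (SE 0.32, edgeR adjusted p = 0.00846) and by 1.08 for MGLL (SE 0.30, edgeR adjusted p = 0.0164).

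The ratio of inhibitor to enzyme summarises both genes in 1 number per library. The G0S2 to PNPLA2 ratio of TPM had medians of 0.113, 0.192, 0.0862 and 0.0925 in NC GOM, MAD, RAD and ULB. In WG they were 1.36, 0.211, 0.393 and 0.209, and in WL 2.05, 2.25, 1.64 and 0.924. The inhibitor transcript exceeded that of the enzyme in 3 of 38 NC libraries, 54 of 158 WG libraries and 31 of 40 WL libraries.

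Within each WG group the ratio lay on both sides of 1. It ran from 0.0455 to 5.63 in GOM, with 26 of 45 libraries above 1, and from 0.0191 to 4.92 in MAD, with 8 of 36. RAD ran from 0.0398 to 3.90, with 10 of 39 above 1, and ULB from 0.0140 to 4.42, with 10 of 38. In WL GOM it ran from 1.18 to 6.44, above 1 in all 10 libraries, and in NC GOM from 0.0312 to 0.521, below 1 in all 9. Of the 42 WG replicate numbers present in at least 3 ATs, 18 were below 1 in every AT, 6 above 1 in every AT and 18 mixed. Of 10 such numbers in NC, 9 were below 1 in every AT, and of 10 in WL, 4 were above 1 in every AT and 6 mixed. In WG GOM the ratio also followed runs of replicate number. It was 0.0486 to 0.0988 for numbers 14 to 16 and 0.0856 to 0.336 for 37 to 44. For numbers 17 to 36 it was 0.851 to 5.05, although number 17 was low in MAD (0.0545) and ULB (0.0426). The WG GOM median thus covers 2 kinds of library. Whether the runs mark a batch is not in the labels and was not tested.

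**Figure D3:**
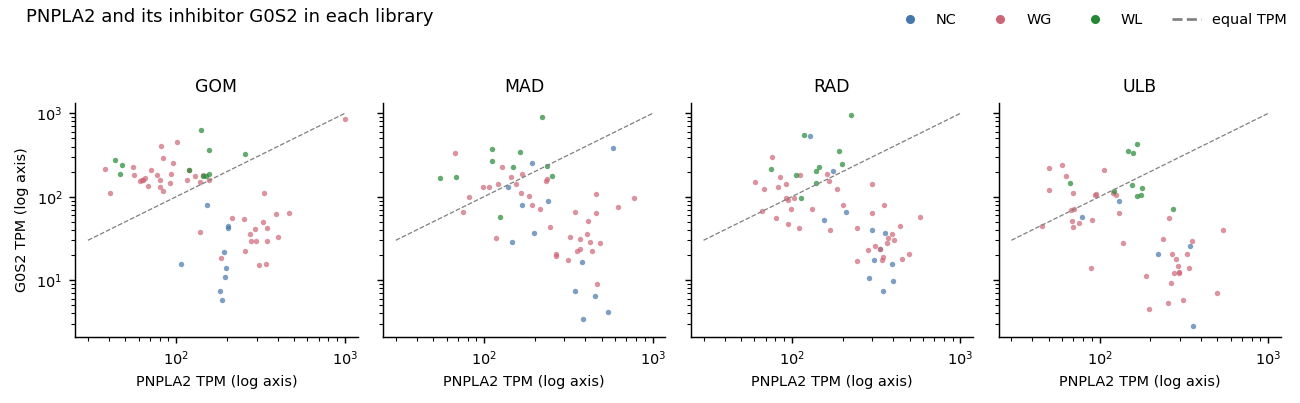
G0S2 level (y axis, TPM, log axis) against PNPLA2 level (x axis, TPM, log axis) in each library by AT, coloured by nutritional group, with the line of equal levels. NC points lie below the line in 35 of 38 libraries, WL points above it in 31 of 40, and WG points on both sides.

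Between the ATs of never-obese pigs, GOM held less of the lipolysis transcripts than MAD and RAD. Among all tested PCGs, 17.7% were called for MAD over GOM (7.49% higher) and 19.5% for RAD over GOM (9.89% higher), and 5 of the 6 members were higher in each, G0S2 being the exception. PLIN1 was higher by a log2 fold change of 1.01 in MAD (SE 0.19, edgeR adjusted p = 0.000601) and 1.19 in RAD (SE 0.15, edgeR adjusted p = 2.71e-06), and LIPE by 1.09 (SE 0.24, edgeR adjusted p = 0.00240) and 1.19 (SE 0.17, edgeR adjusted p = 1.48e-05). ABHD5 was higher by 1.15 (SE 0.29, edgeR adjusted p = 0.00677) and 1.43 (SE 0.27, edgeR adjusted p = 0.000389), MGLL by 0.97 (SE 0.18, edgeR adjusted p = 0.000658) and 1.04 (SE 0.13, edgeR adjusted p = 1.4e-06), and PNPLA2 by 0.74 (SE 0.24, edgeR adjusted p = 0.0272) and 0.68 (SE 0.20, edgeR adjusted p = 0.0126). G0S2 had 1.59 (SE 0.74, edgeR adjusted p = 0.117) and 1.75 (SE 0.74, edgeR adjusted p = 0.0803). The median over the 6 members was 1.05 in MAD and 1.19 in RAD.

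The low values of NC GOM went with low adipocyte markers and with high mesothelial and macrophage markers. ADIPOQ, the adiponectin gene, had a mean of 1836 TPM in NC GOM, while NC MAD, RAD and ULB had 4761, 5345 and 3545, and the summed mesothelial markers WT1, KRT8 and KRT18 had a median of 174 TPM in NC GOM against 11.6 to 14.9 elsewhere in NC. The 9 macrophage markers had a summed median of 1350 TPM in NC GOM, whereas NC MAD, RAD and ULB had 532, 726 and 909. JCHAIN, a plasma cell gene, had a mean of 420 TPM in NC GOM and of 16.7 to 42.02 elsewhere in NC. With libraries at or above 88% alone, which leaves 2 in NC GOM, none of these members was called, although the folds of PLIN1 and LIPE over GOM were 1.02 and 1.14 in MAD and 1.25 and 1.19 in RAD on the log2 scale (edgeR adjusted p = 0.102 to 0.248). Those 2 had a median of 503 TPM for PLIN1 and 327 for LIPE, and the 7 others had 469 and 289. The part of the cell makeup in these differences was not tested.

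ULB in NC held more PLIN1, LIPE and ABHD5 than GOM and less MGLL than MAD and RAD. Over GOM, where 25.4% of PCGs were called (13.3% higher), PLIN1 was higher by 0.70 (SE 0.15, edgeR adjusted p = 0.00275), LIPE by 0.72 (SE 0.22, edgeR adjusted p = 0.0205) and ABHD5 by 1.24 (SE 0.25, edgeR adjusted p = 0.00149). With the replicate number as a block, over 4 pairs, PLIN1 had 0.72 (edgeR adjusted p = 0.114) and LIPE 0.90 (edgeR adjusted p = 0.145). MGLL was lower than in MAD by a log2 fold change of −1.03 (SE 0.25, edgeR adjusted p = 0.0153) and than in RAD by −1.10 (SE 0.18, edgeR adjusted p = 0.000751), and it was the only member called in these comparisons, where 7.73% and 4.32% of PCGs were called. No member was called for RAD over MAD, where 2.41% of PCGs were called, and 0 members had an unadjusted p below 0.05 by edgeR or a call by DESeq2.

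In the high-fat state G0S2 was called higher in GOM than in the other ATs, a call that held in every alternative against ULB alone. LIPE was the other member called between GOM and the visceral ATs. It was higher than in GOM by 0.64 in MAD (SE 0.11, edgeR adjusted p = 6.02e-06) and 0.63 in RAD (SE 0.11, edgeR adjusted p = 1.15e-06), where 6.27% and 11.2% of PCGs were called. G0S2 was lower than in GOM by a log2 fold change of −0.80 for MAD (SE 0.29, edgeR adjusted p = 0.0462), −0.83 for RAD (SE 0.28, edgeR adjusted p = 0.0143) and −1.19 for ULB (SE 0.33, edgeR adjusted p = 0.00165), the last among 17.9% of PCGs called. The call for MAD held in 2 of 9 alternatives, over −0.84 to −0.37, and that for RAD in 5 of 8, over −0.88 to −0.42. Both were lost with either share term and with the replicate block. PLIN1 and MGLL in MAD and RAD, ABHD5 in RAD, and MGLL in ULB passed the p limit against GOM with folds below 1.5.

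WG ULB held less LIPE and MGLL than WG MAD and RAD, and less PNPLA2 than WG MAD. Against MAD, where 14.4% of PCGs were called (8.18% lower), LIPE had a log2 fold change of −0.65 (SE 0.11, edgeR adjusted p = 1.70e-06), MGLL −0.79 (SE 0.10, edgeR adjusted p = 2.86e-10) and PNPLA2 −0.60 (SE 0.21, edgeR adjusted p = 0.0144). Against RAD, where 9.27% were called (4.07% lower), LIPE had −0.62 (SE 0.11, edgeR adjusted p = 2.22e-06) and MGLL −0.84 (SE 0.09, edgeR adjusted p = 8.70e-13), while PNPLA2 had −0.27 (SE 0.21, edgeR adjusted p = 0.327). With the replicate block over 30 pairs with MAD, LIPE had −0.57 (edgeR adjusted p = 4.58e-06) and PNPLA2 −0.50 (edgeR adjusted p = 0.000268), both under the fold limit, and G0S2 came to be called at −0.88 (edgeR adjusted p = 0.000164). Over 33 pairs with RAD, G0S2 came to be called at −0.59 (edgeR adjusted p = 0.00487). No member was called for RAD over MAD, where 5.4% of PCGs were called, and 0 members had an unadjusted p below 0.05 by edgeR or a call by DESeq2.

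In weight-reduced pigs PLIN1 and LIPE were lower in GOM than in RAD and ULB, and no member was called between MAD and GOM. RAD exceeded GOM, with 12.2% of PCGs called (4.07% higher), by 0.77 for PLIN1 (SE 0.23, edgeR adjusted p = 0.0207), 0.81 for LIPE (SE 0.22, edgeR adjusted p = 0.0105) and 0.64 for ABHD5 (SE 0.18, edgeR adjusted p = 0.0160). ULB exceeded GOM, with 16% called (6.16% higher), by 1.16 for PLIN1 (SE 0.22, edgeR adjusted p = 0.000308) and 0.84 for LIPE (SE 0.20, edgeR adjusted p = 0.00307), and it exceeded MAD, with 14.4% called, by 0.97 for PLIN1 (SE 0.28, edgeR adjusted p = 0.0163). No member was called for MAD over GOM, RAD over MAD or ULB over RAD, where 5.97%, 7.31% and 4.34% of PCGs were called. At an unadjusted p below 0.05, edgeR gave 0, 2 (LIPE and ABHD5) and 1 (G0S2) members in these comparisons, and DESeq2 called 0 in each. With the replicate block over 10 pairs of RAD and MAD, PLIN1 with 0.69 (edgeR adjusted p = 0.0152) and ABHD5 with 0.59 (edgeR adjusted p = 0.0373) came to be called.

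The patterns of the members over the 12 group means fell into recognisable pairs, given here as descriptions over 12 points that share libraries. PLIN1 and LIPE had a Pearson r of 0.90, LIPE and ABHD5 of 0.83, PLIN1 and ABHD5 of 0.81, and PNPLA2 and G0S2 of −0.69, on log2(TPM + 1). Of all PCGs with a mean of at least 1 TPM, those most like PNPLA2 were LPIN1 (0.96), SIK2 (0.96) and CLPTM1 (0.95), and those most like G0S2 were ARL2 (0.99), NME6 (0.98) and OSTF1 (0.98). CSAD (0.94) and TMEM120B (0.91) came closest to LIPE, followed by PLIN1. MGLL was most like DGKH (0.92), TOPAZ1 (0.92) and PHF20L1 (0.91), ABHD5 most like NMNAT1 (0.96), PEX19 (0.94) and ECH1 (0.94), and PLIN1 most like TMTC4 (0.96), DMD (0.95) and RETSAT (0.95). Within single groups the median r among the members was between −0.06 and 0.21 in 10 of the 12 groups, 0.65 in WL MAD and 0.49 in WL RAD.

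The signals that switch lipolysis on and off were followed in a list of receptors and cAMP signalling genes. Of 31 listed genes 26 were tested, and those called higher and lower with weight gain were 3 and 0 for GOM, 2 and 4 for MAD, 2 and 2 for RAD, and 0 and 0 for ULB, where edgeR gave 6 genes an unadjusted p below 0.05. The share of the tested list called was thus 11.5%, 23.1%, 15.4% and 0%, against 26.7%, 10.7%, 16.7% and 2.38% of all PCGs, so it exceeded the background in MAD alone. NPR3, the clearance receptor that removes natriuretic peptides, rose in GOM (0.69, edgeR adjusted p = 0.0339), MAD (0.68, edgeR adjusted p = 0.0197) and RAD (0.77, edgeR adjusted p = 0.00393). PRKAR2B, a regulatory subunit of protein kinase A, fell by 1.02 on the log2 scale in MAD (edgeR adjusted p = 0.000203) and by 0.98 in RAD (edgeR adjusted p = 1.15e-07). PTGER3, an inhibitory prostaglandin receptor, fell by 0.83 in MAD (edgeR adjusted p = 0.0206) and by 0.83 in RAD (edgeR adjusted p = 0.00189), while ADRA2A, the inhibitory alpha-adrenergic receptor, rose in RAD (1.13, edgeR adjusted p = 0.0120).

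With weight loss, genes of this list called higher and lower were 3 and 1 for GOM, 5 and 2 for MAD, 3 and 0 for RAD, and 2 and 1 for ULB. That is 15.4%, 26.9%, 11.5% and 11.5% of the tested list, against 5.26%, 17.4%, 6.37% and 8.12% of all PCGs. ADRB1, the beta-adrenergic receptor gene that activates the pathway, rose in all 4 ATs, by 1.51, 0.97, 1.03 and 2.15 for GOM, MAD, RAD and ULB, with edgeR adjusted p values of 8.31e-05, 0.00468, 0.00520 and 1.59e-07. NPR3 also rose in all 4, by 1.14, 1.04, 1.56 and 1.52 in the same order, with edgeR adjusted p values of 0.000192, 0.000513, 5.92e-07 and 7.18e-06. PDE3B, the phosphodiesterase through which insulin lowers cAMP, fell by 0.87 in GOM (edgeR adjusted p = 0.000232), by 0.81 in MAD (edgeR adjusted p = 3.35e-05) and by 0.59 in ULB (edgeR adjusted p = 0.000344). PDE4B, another phosphodiesterase, rose in GOM (0.67, edgeR adjusted p = 0.00450) and MAD (1.23, edgeR adjusted p = 2.58e-05). The list thus held both activating and inhibiting genes among those that rose.

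Compared with NC, WL tissue had 4 and 2 genes of this list called higher and lower for GOM, 6 and 5 for MAD, 2 and 4 for RAD, and 4 and 1 for ULB. That is 23.1%, 42.3%, 23.1% and 19.2% of the tested list, below the 36.1% and 26.7% of all PCGs in GOM and RAD and above the 33.1% and 14.8% in MAD and ULB. NPR3 was higher in all 4 ATs, by 1.84, 1.73, 2.32 and 1.44 in GOM, MAD, RAD and ULB, with edgeR adjusted p values of 2.58e-06, 0.000163, 2.16e-07 and 0.0325. PDE3B was lower in all 4, with log2 fold changes of −0.69, −1.02, −0.62 and −0.75 and edgeR adjusted p values of 0.000188, 0.000221, 0.00121 and 0.00661. PRKACA, the catalytic subunit of protein kinase A, was lower in the visceral ATs, at −0.99 in GOM (edgeR adjusted p = 0.000258), −1.01 in MAD (edgeR adjusted p = 0.00113) and −1.0 in RAD (edgeR adjusted p = 0.00302), with −0.67 in ULB not called. FFAR2, an inhibitory receptor for short-chain fatty acids, was higher in GOM (1.75, edgeR adjusted p = 0.00278) and MAD (1.16, edgeR adjusted p = 0.0171).

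The insulin arm, which restrains lipolysis, had 7 of 8 listed genes tested, and the few that were called were lower. With weight gain 1 gene was called, IRS1, an insulin receptor substrate, lower in MAD (−0.61, edgeR adjusted p = 0.0384), while edgeR gave 4, 6 and 2 of the 7 an unadjusted p below 0.05 in GOM, RAD and ULB. With weight loss none was called in any AT, and 0, 4, 0 and 1 had an unadjusted p below 0.05 by edgeR in GOM, MAD, RAD and ULB. In WL against NC, 2, 3, 1 and 1 genes were lower in GOM, MAD, RAD and ULB and none higher, which is 28.6%, 42.9%, 14.3% and 14.3% of the list against 36.1%, 33.1%, 26.7% and 14.8% of all PCGs called, near the background. The log2 fold changes had medians over the list of −0.53, −0.50, −0.36 and −0.33 against −0.01, −0.01, 0.00 and −0.03 over all PCGs. They were AKT2 in GOM (−0.65, edgeR adjusted p = 0.00575) and MAD (−0.83, edgeR adjusted p = 0.00325), PIK3R1 in GOM (−0.72, edgeR adjusted p = 0.00143), IRS1 in MAD (−1.10, edgeR adjusted p = 0.000649) and RAD (−0.95, edgeR adjusted p = 0.000123), and the insulin receptor INSR in MAD (−0.78, edgeR adjusted p = 0.000405) and ULB (−0.84, edgeR adjusted p = 0.00168).

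Some of the other droplet proteins, lipases and carriers of the products rose with weight gain in visceral fat. Of 20 listed genes 15 were tested, and 9, 5 and 5 were called higher in GOM, MAD and RAD with none lower, which is 60%, 33.3% and 33.3% of the list against 26.7%, 10.7% and 16.7% of all PCGs called in either direction. In ULB none was called, and 1 (AQP11) had an unadjusted p below 0.05 by edgeR. PLIN2, a droplet coat protein of many cell types, rose by 1.51 in GOM (edgeR adjusted p = 0.000676), 1.15 in MAD (edgeR adjusted p = 0.00584) and 1.05 in RAD (edgeR adjusted p = 0.000314). AQP3, a channel for water and glycerol, rose by 1.16, 1.4 and 0.87 in the same ATs, with edgeR adjusted p values of 0.000917, 0.000238 and 0.000247. PLIN3 rose by 0.96, 0.81 and 0.78 (edgeR adjusted p = 0.000486, 0.00143 and 6.45e-05) and PNPLA3, a relative of PNPLA2, by 0.75, 1.05 and 0.71 (edgeR adjusted p = 0.0204, 0.0149 and 0.0310). Macrophages also use PLIN2, and the macrophage markers were called higher in WG MAD (9 of 9) and RAD (4 of 9), while in WG GOM none was higher and C1QB was lower. The part of macrophages in these rises was not tested.

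With weight loss PNPLA3 fell by 1.01 in GOM (edgeR adjusted p = 0.00430), by 1.21 in MAD (edgeR adjusted p = 0.00451) and by 1.05 in ULB (edgeR adjusted p = 0.000880). AQP3 rose with weight loss in GOM (0.97, edgeR adjusted p = 0.00746) and ULB (1.62, edgeR adjusted p = 1.29e-09), and so did HILPDA, another protein known to inhibit PNPLA2 (0.99 in GOM, edgeR adjusted p = 0.00653, and 1.25 in ULB, edgeR adjusted p = 0.0243). Over the whole list, genes called higher and lower were 2 and 2 for GOM, 0 and 4 for MAD, 0 and 0 for RAD, where 3 had an unadjusted p below 0.05 by edgeR, and 3 and 1 for ULB. In WL against NC they were 7 and 1, 4 and 3, 4 and 1, and 2 and 1. The calls were 26.7%, 26.7%, 0% and 26.7% of the tested list with weight loss and 53.3%, 46.7%, 33.3% and 20% in WL against NC, beside the shares of all PCGs given above for these steps.

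HILPDA and AQP3 were higher in WL than in NC in all 4 ATs. HILPDA had log2 fold changes of 1.92, 1.28, 1.22 and 1.89 in GOM, MAD, RAD and ULB, with edgeR adjusted p values of 2.46e-07, 0.00411, 0.00102 and 0.000103. AQP3 had 2.15, 1.32, 1.27 and 1.41 (edgeR adjusted p = 9.04e-05, 0.00609, 0.000659 and 0.00697), while AQP11, another aquaporin, had −0.69, −0.99, −0.95 and −1.23 (edgeR adjusted p = 0.0148, 0.00139, 0.00235 and 0.00168). HILPDA and G0S2, the inhibitors of PNPLA2 on these lists, were thus both called higher in WL than in NC in every AT. Outside GOM the G0S2 calls were lost in some alternatives.

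Chromatin at the 7 genes was in the active compartment. The A-B index is a score without unit whose positive values mark the A compartment of open, gene-rich chromatin, and the Hi-C libraries of NC, WG and WL numbered 9, 46 and 10 for GOM, 12, 37 and 10 for MAD, 12, 40 and 10 for RAD, and 5, 39 and 10 for ULB. Between 42.9% and 51.0% of bins were positive in a library. The bin of PNPLA2 had group means of 6.21 to 7.06, among the highest of all bins, that of LIPE 5.17 to 5.86 and that of MGLL 3.90 to 4.70. ABHD5 had 2.84 to 3.78, G0S2 2.18 to 4.37, PLIN1 2.37 to 3.70 and AQP7 3.39 to 5.07. The index was positive in all 240 libraries for 6 of the genes.

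The exception was AQP7, whose index was negative in 5 of 46 WG GOM and 4 of 40 WG RAD libraries, down to −4.48 and −3.64. In these 9 libraries the whole of chromosome 10 ran against the others, with a correlation of −0.915 to −0.695 to the median profile of all libraries. Altogether 32 of 240 libraries had a correlation below 0.5 on chromosome 10, whereas the lowest correlation on any other autosome was 0.857. Without these 32 libraries the AQP7 index had means of 4.44 ± 0.49 (SD, n = 39) in WG GOM and 4.34 ± 0.57 (SD, n = 26) in WG RAD, with lowest values of 3.49 and 3.18.

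**Figure D4:**
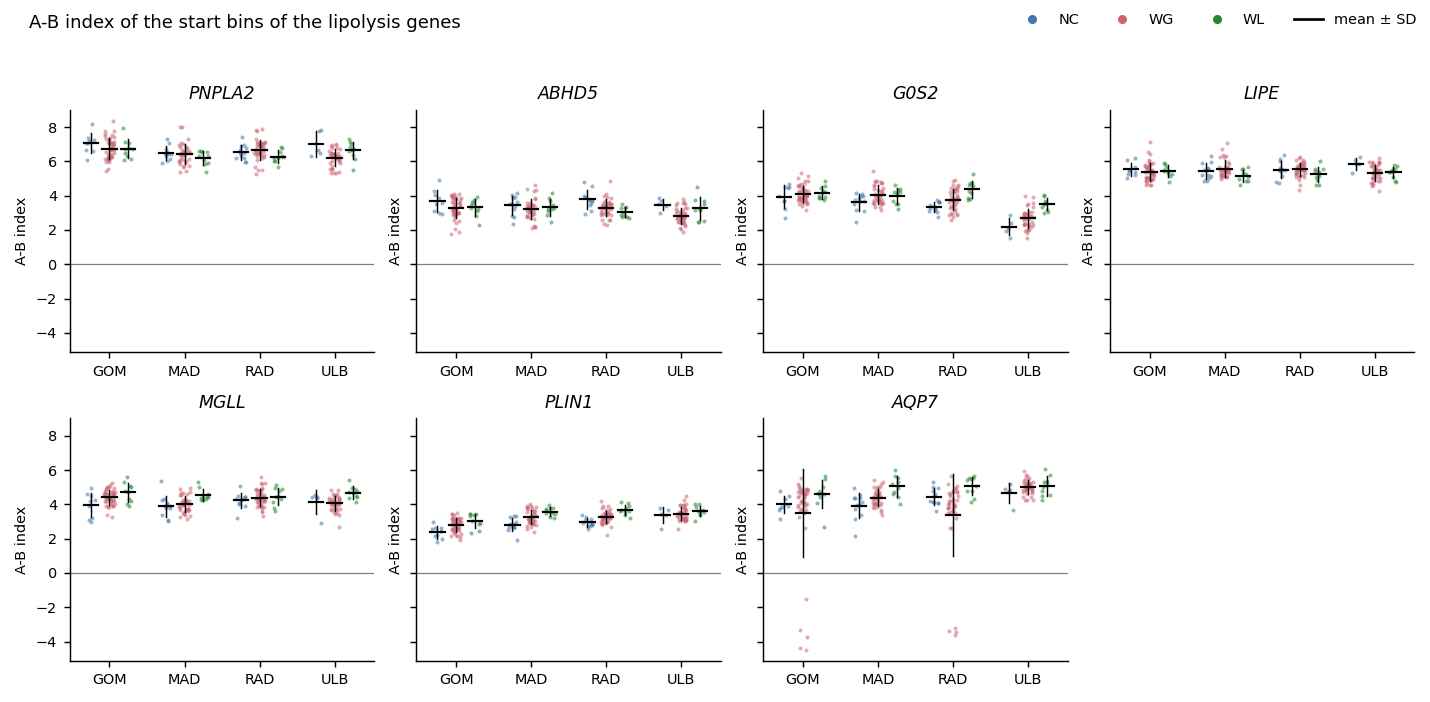
A-B index of the bin holding the start of each of the 7 genes (y axis, no unit) in every Hi-C library, by AT and nutritional group, with the mean and SD of each group. The G0S2 bin is lowest in ULB of the NC group, between 1.55 and 2.87, and the AQP7 points below 0 belong to 9 libraries of WG GOM and WG RAD.

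The G0S2 bin was where chromatin differed most among the members. In NC ULB the 5 libraries had indices of 1.55, 2.11, 2.87, 2.40 and 1.95, while WG ULB ran from 1.5 to 4.0 (median 2.69) and WL ULB from 3.0 to 4.02 (median 3.53). All 10 WL libraries of ULB were above all 5 NC libraries, and the share of all bins that separate likewise was not counted. The index rose from NC to WL by 1.32 (SE 0.23, limma adjusted p = 0.00209), called in all 9 alternatives, and from WG to WL by 0.81 (SE 0.18, limma adjusted p = 0.000575). A bin was called where the index differed by more than 0.75 with an adjusted p under 0.05, and 13.6% and 9.96% of bins were called in these comparisons. After quantile normalization of the index, the difference between WL and WG was 0.60 and under the limit.

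The index of G0S2 was higher in all 3 visceral ATs than in ULB in NC and WG, and in WL it was called higher in RAD alone. In NC it ran from 2.71 to 4.65 in GOM (median 3.98), from 2.47 to 4.14 in MAD (median 3.72) and from 2.76 to 3.73 in RAD (median 3.30). The index of ULB was lower by 1.76 than that of GOM (difference −1.76, SE 0.32, limma adjusted p = 0.00110), by 1.44 than that of MAD (difference −1.44, SE 0.26, limma adjusted p = 0.00176) and by 1.16 than that of RAD (difference −1.16, SE 0.20, limma adjusted p = 0.000940), among 20.5%, 11.2% and 14.9% of bins called. In WG the differences were −1.42 (SE 0.11, limma adjusted p = 1.09e-19), −1.38 (SE 0.12, limma adjusted p = 1.08e-15) and −1.09 (SE 0.13, limma adjusted p = 6.01e-11), among 18.8%, 12.1% and 11.3%. In WL the difference to RAD was −0.88 (SE 0.19, limma adjusted p = 0.00824), among 5.71%. In NC, G0S2 expression in ULB was not called different from any other AT, with log2 fold changes of 0.51 over GOM, −1.06 over MAD and −1.23 over RAD. From NC to WL the index of RAD also rose, by 1.04 (SE 0.17, limma adjusted p = 5.03e-05), among 15.8% of bins called (15.2% higher). After quantile normalization that difference was 0.67 and under the limit.

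The other members were called in fewer comparisons than the 10 of G0S2. PLIN1 had an adjusted p below 0.05 in 16 of the 30 comparisons, more than the 14 of G0S2, and was called in 3, its differences running from −0.08 to 1.0. The PLIN1 bin rose from NC to WL by 0.76 in MAD (SE 0.15, limma adjusted p = 0.000798) and by 0.75 in RAD (SE 0.13, limma adjusted p = 8.87e-05), and in NC it was higher in ULB than in GOM by 1.0 (SE 0.24, limma adjusted p = 0.00637). The AQP7 bin rose from NC to WL by 1.12 in MAD (SE 0.28, limma adjusted p = 0.00445), among 11.2% of bins called (9.83% higher). After quantile normalization of the index none of these rises of PLIN1 and AQP7 from NC to WL was called. The PLIN1 difference was then 0.38 in MAD and 0.38 in RAD. ABHD5 fell in RAD over the same step (difference −0.75, SE 0.19, limma adjusted p = 0.00293), but the mean of all bins over the gene differed by −0.26, which was not called. PNPLA2 fell with weight gain in ULB (difference −0.79, SE 0.24, limma adjusted p = 0.0279), among 6.15% of bins called, with −0.60 without NC ULB replicate 5 and −0.59 without replicate 12, neither called. In WG the AQP7 index of ULB was above that of GOM by 1.5 (SE 0.40, limma adjusted p = 0.000754) and of RAD by 1.62 (SE 0.38, limma adjusted p = 0.000167). Without the libraries of low chromosome 10 correlation these differences were 0.57 and 0.67, under the limit.

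With the replicate block, 2 called differences of the index between ATs in NC were lost. G0S2 between ULB and MAD had −1.57 (limma adjusted p = 0.0680) and PLIN1 between ULB and GOM 0.84 (limma adjusted p = 0.0916). LIPE and MGLL were called in none of the 30 comparisons by limma. Their index differences ran from −0.52 to 0.44 and from −0.41 to 0.73, with an adjusted p below 0.05 in 0 and 7 of them. In 18 of the 30 comparisons no member was called, and 1.01% to 19.4% of bins were called there.

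The H3K27ac mark of active promoters and enhancers was deposited as 18 tables of stitched regions ranked by signal with ROSE, each made from a pool of 1 to 11 H3K27ac libraries of 1 tissue and group or subgroup, so the values below have no replicate and no test. A region lay within 10 kb of PNPLA2, LIPE, MGLL, PLIN1 and AQP7 in all 18 tables, of G0S2 in 17 and of ABHD5 in 15, which makes 122 of 126 pairs of gene and table. Over 18725 genes the share with such a region was between 65.2% and 85.6% per table, with a median of 72.7%.

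The first and last enzymes lay in the strongest regions. The best region of PNPLA2 was marked as a super-enhancer, a long region of high summed signal, in 18 of 18 tables and stood in the top 0.0670% to 2.09% of regions, with a median of 0.285%. MGLL was in a super-enhancer in 18 of 18, in the top 0.250% to 2.76%. LIPE was in one in 7 tables, AQP7 in 4, G0S2 in 3, PLIN1 in 1 and ABHD5 in 0. The 51 pairs of gene and super-enhancer thus came mainly from PNPLA2 and MGLL. Of all regions in a table, 1.98% to 6.79% were marked as super-enhancers. The share of all genes with a super-enhancer within 10 kb was not counted, so these counts have no background beside them.

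**Figure D5:**
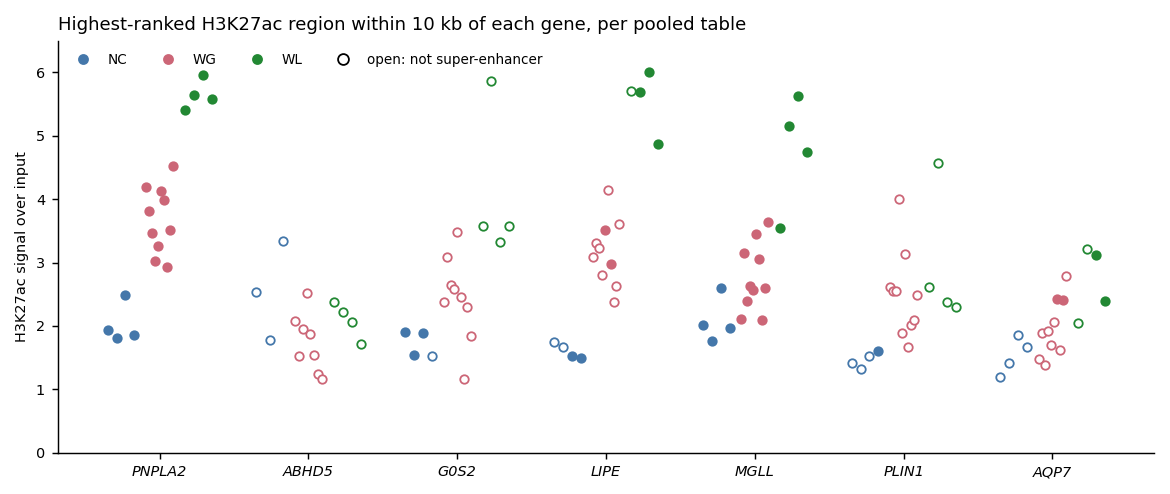
Ratio of H3K27ac to input signal in the highest-ranked region within 10 kb of each of the 7 genes (y axis) for each of the 18 pooled tables, by nutritional group, filled where ROSE marked a super-enhancer, with no replicate. For PNPLA2 the 4 NC tables lie between 1.81 and 2.50, the 10 WG tables between 2.93 and 4.52 and the 4 WL tables between 5.4 and 5.95.

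The ratio of H3K27ac to input signal over these regions was ordered by group for the 3 enzymes. For PNPLA2 it was 1.81 to 2.50 in the 4 NC tables, 2.93 to 4.52 in the 10 WG tables and 5.4 to 5.95 in the 4 WL tables. For LIPE it was 1.5 to 1.75, 2.37 to 4.14 and 4.86 to 6.01, and for MGLL 1.76 to 2.60, 2.10 to 3.64 and 3.55 to 5.63. The groups of tables did not overlap for PNPLA2 and LIPE and overlapped for MGLL. The share of all genes whose tables separate in this way was not counted, so the lack of overlap has no background beside it. The median ratio over all regions of a table was 1.48 to 1.71 in NC, 1.55 to 1.81 in WG and 1.85 to 1.92 in WL, so the whole tables moved in the same order by a smaller amount. The stitched region of PNPLA2 was 130599 to 176399 bases long in NC, 29199 to 134399 in WG, where 1 of the 10 lay beside the gene without overlapping it, and 97999 to 136799 in WL. The stitched region of LIPE was 64399 to 147799 bases long in NC and 18799 to 38599 in WG and WL, so the ratios of both genes were taken over different lengths and separately called regions.

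For G0S2 the ratio was 1.52 to 1.90 in the NC tables, 1.16 to 3.48 in the WG tables with a region and 3.32 to 5.87 in the WL tables, the highest being WL MAD. For PLIN1 it was 1.32 to 1.61 in NC, 1.68 to 4.01 in WG and 2.29 to 4.58 in WL, and for AQP7 1.19 to 1.86, 1.39 to 2.78 and 2.05 to 3.21. ABHD5 ran from 1.77 to 3.34 in NC, from 1.16 to 2.52 in WG and from 1.72 to 2.38 in WL, with no order of the groups. The NC regions of G0S2 were 72799 to 236999 bases long and those of WG and WL 11199 to 71399 bases, so their ratios were not taken over the same sequence. The regions of WL MAD and WL GOM did not overlap G0S2 and lay 7867 and 6667 bases from its start. Those behind the highest and the lowest WG ratio of G0S2 did not overlap the gene either.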

How the data were processed

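RNA-seq, Hi-C and H3K27ac ChIP-seq of 4 ATs in 3 nutritional groups were analysed from the deposited tables, with groups taken from the deposited labels. The authors estimated transcript abundance with kallisto 0.43.0 and deposited estimated counts per gene and TPM on Sscrofa11.1. They deposited the A-B index, a score per bin of 20 kb, computed from balanced and normalized contact matrices. They aligned ChIP-seq reads with BWA 0.7.15, handled them with SAMtools 1.3.1, called regions with SICER and deposited ROSE tables of H3K27ac and input signal, pooled by tissue and group. Of the columns of each whole-series table, 9 match no label and were not used, and the authors' other files were not used here. The members and gene lists were chosen with earlier results of these data known.

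Expected counts were rounded and tested with edgeR 4.0.16 in R 4.3.3 (TMM, quasi-likelihood, Benjamini-Hochberg over all PCGs above 0.5 TPM in at least 80% of either group). Each of the 30 comparisons was fitted on its 2 groups, and differences between ATs were tested in 1 fit of all 12 groups. That joint fit had no block, although the paper describes taking the 4 ATs from each carcass. Its p-values therefore treat all libraries as independent, and no blocked version was run. The A-B index was tested with limma 3.58.1 over all bins. Replicate means within a group are over labelled samples, and where the labels do not tie them to separate animals the p-values measure only the spread between samples. Symbols were matched for 14821 of 21280 PCGs. All 7 members were named, and from each pathway list and step up to 4 genes called in the most ATs, with the 3 PCGs most like each member. The alternatives were DESeq2 1.42.0, its size factors, limma on log2(TPM + 1), no filter on low genes, terms or limits for the share of TPM on PCGs, the replicate block, each NC ULB replicate left out, quantile normalization, other windows and thresholds, and, chosen after seeing the data, the continuous share, MAD libraries of high T cell or smooth muscle markers left out, and libraries of low chromosome 10 correlation left out. The precision of a library is set by its 3337098 to 22939420 counts on PCGs. The A-B index and ROSE tables carry no counts, so their depth is unknown here. On simulated data, edgeR recovered 74% of genes changed 2-fold and 97% of those changed 4-fold among 14251 genes of the weight gain comparison in GOM (2 false calls), and 63% and 93% among 13600 genes of that in ULB, which has 5 NC libraries (6 false calls). The simulated libraries were drawn independently around 1 mean per gene, with no difference in PCG share between groups. The false calls therefore do not measure those of the real comparisons.

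The labels do not say that a replicate number marks a pig. Correlations of the deviations of same-numbered libraries from their group means were all above 0.1 in 4 of 18 comparisons between ATs: ULB with GOM in NC (4 pairs, lowest 0.104), ULB with MAD in WG (30 pairs, lowest 0.264), ULB with RAD in WG (33 pairs, lowest 0.102) and RAD with MAD in WL (10 pairs, lowest 0.241). The blocked values stand beside the results in those comparisons where they change a call.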

Additional observations from a re-analysis of the deposited data

Results flagged for a closer look

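Of 78 groups of 4 to 10 libraries of a member, 9 held a value set apart from the rest by Dixon's test at the 95% level. Chance gives this in about 1 of 20 groups only where values are normally distributed and groups independent. TPM was tested without a log, and WL replicate 5 recurs between ATs, so the 9 cannot be set against that rate. In WL, replicate 5 held the highest G0S2 level in GOM (624.607 TPM, next 363), MAD (893.309 TPM, next 377) and RAD (952.153 TPM, next 543). In WL GOM, PNPLA2 was highest in replicate 4 (255.715 TPM, next 156). In WL ULB, ABHD5 was highest in replicate 8 (227.231 TPM, next 142) and PLIN1 in replicate 3 (2198.26 TPM, next 1365). In the A-B index, the MGLL bin was lowest in NC ULB replicate 5 (2.8879, next 4.38), and the AQP7 bin was lowest in NC ULB replicate 12 (3.69363, next 4.75) and in WL GOM replicate 9 (2.68261, next 4.09).

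A further 6 results came from a change that differed between the 4 ATs in the joint test of edgeR, each with its adjusted p. With weight gain it was G0S2 (0.0378). With weight loss they were PLIN1 (0.000276), LIPE (0.000732) and MGLL (0.0171), and in WL against NC they were PLIN1 (0.0116) and MGLL (0.0175). The sizes and directions stand beside these genes in the results.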

How the results depend on the processing

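No fold change or index difference of a member turned its direction where it was called. Over all alternatives, 1469 log2 fold changes of members stayed on their side of the limits, 34 came to be called and 87 ceased to be, and of the index differences 1098 stayed, 30 came to be called and 13 ceased. The members called in expression numbered 2 for weight gain, 7 for weight loss, 10 for WL against NC, and 15, 10 and 6 between ATs in NC, WG and WL. With libraries at or above 88% of TPM on PCGs alone they were 0, 3, 5, 0 in NC and 2 in WL, with fewer libraries tested. For weight loss they were 4 with the share as a continuous term and 4 without the MAD libraries of high T cell or smooth muscle markers. With the replicate block they were 10 between ATs in WL. The paired fits changed no other count by over 1.5 times, and their changed calls in the 4 comparisons where every pair was above 0.1 stand beside the results. Elsewhere some same-numbered pairs were at or below 0.1, which does not exclude a pairing. In WG, 35 of 36 pairs of MAD with GOM, 37 of 39 of RAD with GOM and 37 of 38 of ULB with GOM were above 0.1. Their median correlations were 0.66, 0.59 and 0.62, against −0.10, −0.03 and −0.07 for libraries of unlike number. For the A-B index the calls numbered 1 for weight gain, 1 for weight loss, 6 for WL against NC, and 4, 5 and 1 between ATs. With an index difference above 0.5 they were 2, 5, 8 in WG and 5 in WL, and after quantile normalization 2 for weight gain and 0 for weight loss. Without the libraries of low chromosome 10 correlation they were 3 in WG. Leaving out 1 NC ULB library gave 0 to 2 index calls for weight gain, 0 without replicate 5 or replicate 12 and 2 without replicate 7. Of the members whose change differed between ATs (1, 3 and 2 for the 3 steps), 3 did so for weight gain with the share set as a term, and 0, 0 and 0 with libraries at or above 88% alone. Counting super-enhancers alone left 51 of the 122 pairs of gene and table. On log2(TPM + 1) with limma, the median of all PCGs moved by 0.17 to 0.29 in visceral ATs against NC, and by 0.13 and 0.23 in ULB, so fold changes on that scale are relative to it. In all these cases the cause was not tested. With 5 libraries in NC ULB and 2 above 88% in NC GOM, differences that involve those groups are the least precise.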
